A study of Mus musculus with 6 samples.

Results

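The comparison was between 2 mouse induced pluripotent stem cell (iPSC) lines made from peritoneal fibroblasts, one labelled 4N- (PF2) and one labelled 4N+ (PF1), with 1 RNA library from each, out of 6 libraries in the series. All 22558 gene entries of the table that sets the 4N- line against the 4N+ line were used, and 11606 of them were measured, meaning that they reached 1 FPKM in at least 1 of the 2 libraries. FPKM is a count of fragments divided by transcript length and library size. The series also holds a 4N- and a 4N+ iPSC line from tail tip fibroblasts and a pair of embryonic stem cell (ESC) cultures, an H2A.X Cre knockout and its Flox/Flox counterpart. Both peritoneal lines were of a mixed 129Sv and C57 background and at passage 25, were grown on feeder cells with LIF, and were moved to gelatin-coated plates before RNA extraction to leave the feeders behind. Their labels carry the name H2A.X but state no genotype for the iPSC, and each 4N label stands on 1 line of each origin. The labels do not spell out 4N, which was read, from knowledge outside them, as the outcome of tetraploid complementation.

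Tetraploid complementation places stem cells in a host blastocyst whose own cells can form the placenta but contribute little to the embryo proper, so a line that scores in it has formed nearly the whole embryo. Among mouse iPSC lines, silencing of the imprinted Dlk1-Dio3 region, whose noncoding RNAs are maternally expressed, is a known mark of lines that do poorly in such tests. Pluripotent lines kept in culture are also known to gain or lose whole chromosomes or parts of them, which moves the RNA level of many neighbouring genes by a modest amount.

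The 2 lines were distinguished by shifts of whole chromosomes and chromosome ends and by a smaller set of single genes with large differences. Values are given as FPKM, and differences as the log2 ratio of the 4N- over the 4N+ line after adding 1 FPKM, a scale that understates the difference of genes with low values. In the 4N- line 67 genes were higher by 2-fold or more, which is 0.577% of those measured, and 113 were lower by as much, which is 0.974%. With each gene centred on the median of its own chromosome these numbers were 81 (0.698%) and 82 (0.707%), and with ratios centred on -0.17, the median of genes that reached 5 FPKM on both sides, they were 91 and 87. Small RNA genes, which libraries made from messenger RNA capture poorly, supplied 73 of the 180 genes, and 55 of those 73 were listed at 0 in 1 of the libraries. Without them 30 genes were higher (0.262%) and 77 lower (0.673%). With 1 library a side there is no replicate error and no p-value for any of these differences.

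Most ratios were small and leaned downward. The ratio was below 0 for 7908 measured genes, or 68.1%, and the median over measured genes was -0.13. Over the 10996 genes that reached 1 FPKM in both peritoneal libraries the interquartile range of the log2 ratio was 0.34, against 0.20 in the tail tip pair, and it was 0.30 after each gene was centred on its chromosome. The share of genes that differed at least 1.5-fold was 5.73% and became 3.72% after that centring, while in the tail tip pair it was 1.15% with and without it. The FPKM summed to 306285 in the 4N- library and 332930 in the 4N+ library, 11277 and 11325 genes reached 1 FPKM, and 1 fragment was worth the same FPKM in both. The downward lean has the direction of these sums. Whether it is an offset of scale between the 2 libraries was not tested. A transcript of 2000 bases at 1 FPKM corresponded to 79.7 fragments.

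**Figure D1:**
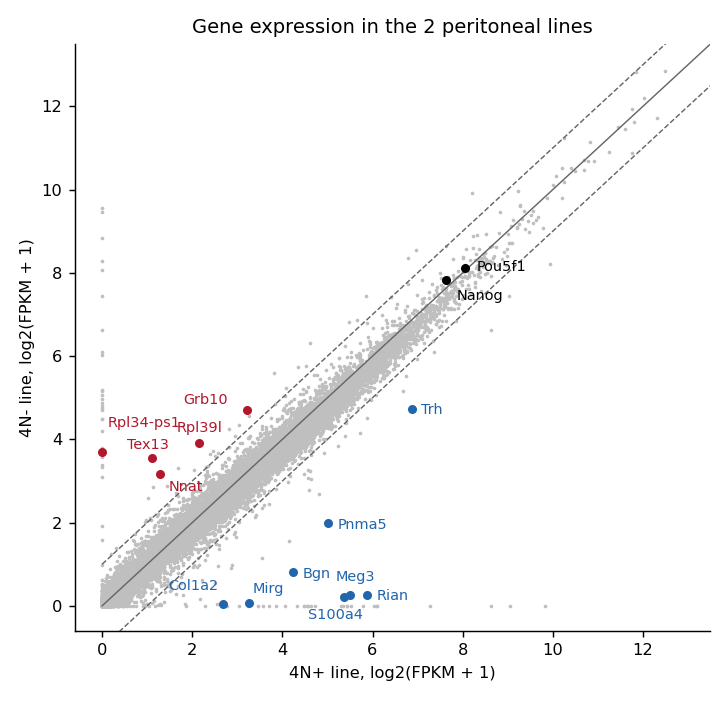
Expression of every gene entry in the 4N+ line (horizontal axis) against the 4N- line (vertical axis), both as log2(FPKM + 1), with 1 point per gene. The solid line marks equal values and the dashed lines a 2-fold difference; Rian, Meg3 and S100a4 lie near 0 in the 4N- line, and Pou5f1 and Nanog lie near the solid line.

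Chromosome 17 stood higher in the 4N- line, and chromosomes 6 and 11 stood lower. A chromosome's shift is the median log2 ratio of its genes that reached 1 FPKM in both libraries, minus that of all autosomal genes, and 49.9% of all such genes lay above the autosomal median. For chromosome 17 the shift was 0.37, and 95.9% of its 535 genes lay above the autosomal median. For chromosome 11 it was -0.25, with 18.7% of 935 genes above, and for chromosome 6 it was -0.24, with 22.9% of 503 genes above. Chromosome 8 was shifted by 0.13, with 73.4% of 612 genes above. The other 15 autosomes lay between -0.06 and 0.10. In the tail tip pair all 19 autosomes lay between -0.03 and 0.03, and in the ESC pair they spread from -0.20 to 0.10. As linear ratios these shifts are 1.29-fold for chromosome 17, 1.19-fold for chromosome 11 and 1.18-fold for chromosome 6.

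**Figure D2:**
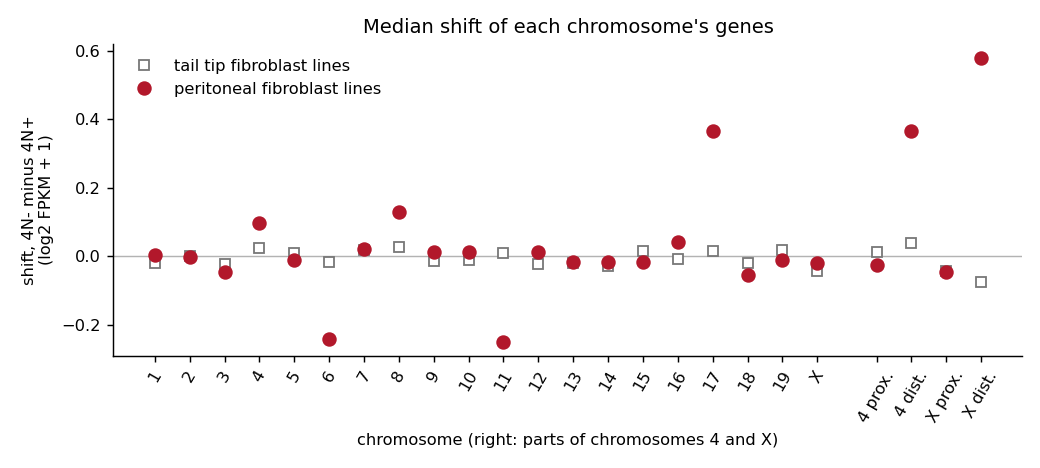
Shift of each chromosome (horizontal axis; the 4 points at the right are the proximal and distal parts of chromosomes 4 and X) in log2(FPKM + 1), 4N- minus 4N+, relative to all autosomal genes. Filled circles are the peritoneal pair and open squares the tail tip pair; chromosomes 6, 11 and 17 and the distal ends of 4 and X stand away from 0 in the peritoneal pair, and the tail tip points lie between -0.08 and 0.04.

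Counted in windows, the shifts ran the length of chromosomes 6, 11 and 17. In windows of 10 Mb that held at least 10 genes, all 9 windows of chromosome 17 were above the autosomal median, between 0.26 and 0.39. All 13 windows of chromosome 11 were below it, between -0.38 and -0.19, and so were all 14 of chromosome 6, between -0.47 and -0.13. On chromosome 8, 11 of 12 windows were above, from -0.06 to 0.23. The 162 windows of the autosomes other than 4, 6, 8, 11 and 17 divided into 69 above and 93 below and ranged from -0.20 to 0.16.

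Chromosomes 4 and X were shifted at their distal ends only, within the windows tested. On chromosome 4 the 3 windows from 130 Mb on lay between 0.33 and 0.40, and the 12 windows before it between -0.11 and 0.03. With a boundary at 131 Mb of mm9, chosen after the values were seen, the distal 260 genes were shifted by 0.37, with 253 of them above the autosomal median, and the proximal 479 genes by -0.03. Near that boundary lie Laptm5, a lysosomal membrane protein gene, on the proximal side (15.3 FPKM in 4N- cells and 8.45 in 4N+ cells) and the receptor phosphatase gene Ptpru on the distal side (2.14 and 2.22 FPKM). The values of these neighbours therefore do not place the step to the gene. On the X chromosome the 2 windows from 150 Mb on lay at 0.49 and 0.58, and the 12 before them between -0.15 and 0.06. The boundary here was set at 155 Mb, also after the values were seen. The 34 genes beyond it were shifted by 0.58, with 33 above, and the proximal 340 genes by -0.05. On either side of this cut lie Mbtps2, a protease gene (9.01 and 10.6 FPKM), and Rps6ka3, a kinase gene (27.7 and 13.4 FPKM). Both follow from the chosen cut, so they do not locate a step independently of it. In the tail tip pair the distal ends of chromosomes 4 and X were shifted by 0.04 and -0.08.

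**Figure D3:**
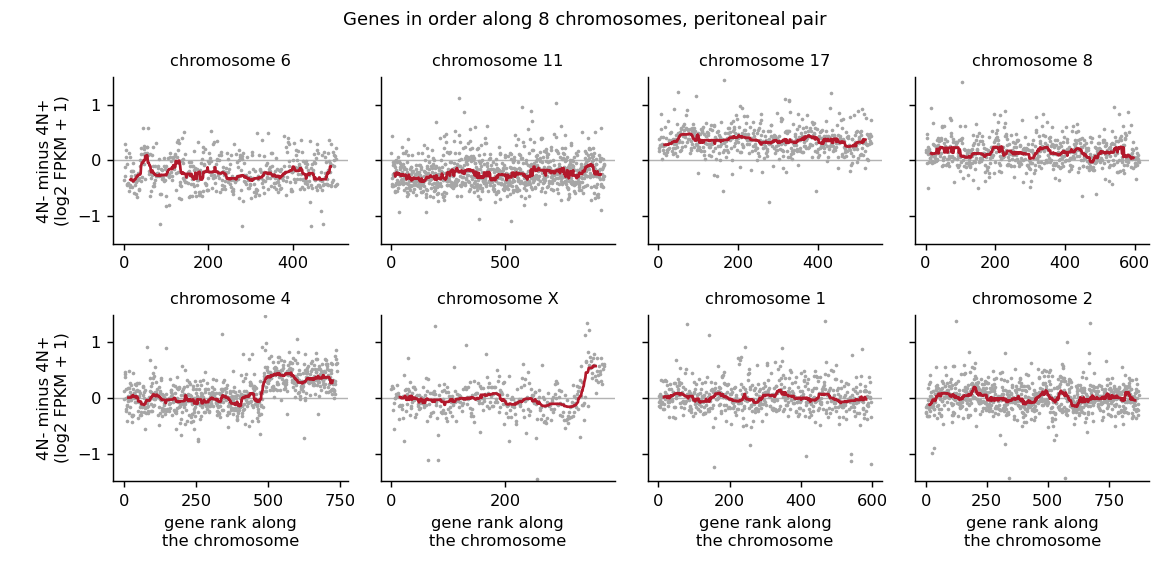
Log2 ratio of each gene that reached 1 FPKM in both peritoneal libraries, 4N- minus 4N+ and relative to the autosomal median (vertical axis), in gene order along 8 chromosomes (horizontal axis, gene rank); grey points are genes and the line is a running median of 31 genes. The line stays above 0 along chromosome 17, below 0 along chromosome 11, and steps up near the end of chromosomes 4 and X. On chromosome 6 it runs from -0.38 to 0.10 and on chromosome 8 from -0.03 to 0.25, so it crosses 0 on both. On chromosomes 1 and 2 it stays between -0.15 and 0.20. The few genes beyond 1.5 either way lie outside the axis.

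Set against the mean of the 2 tail tip lines, it was the 4N+ line that stood away from them in most of these regions. Levels were compared here across tables that were normalized separately, and each shift was taken relative to all autosomal genes. In the 4N+ line chromosome 17 was shifted by -0.34, the distal end of chromosome 4 by -0.36, chromosome 6 by 0.22 and chromosome 11 by 0.20. The same regions in the 4N- line were shifted by 0.02, 0.03, -0.01 and -0.04. Chromosome 8 was higher than in the tail tip lines in both peritoneal lines, by 0.36 in the 4N- line and 0.24 in the 4N+ line. Only the distal X chromosome stood apart in the 4N- line alone among the regions described, at 0.64 against 0.07 in the 4N+ line. The 14 remaining autosomes lay between -0.10 and 0.01 in the 4N- line and between -0.08 and -0.00 in the 4N+ line. The files hold no measure of DNA, and whether these shifts follow the number of chromosome copies was not tested.

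**Figure D4:**
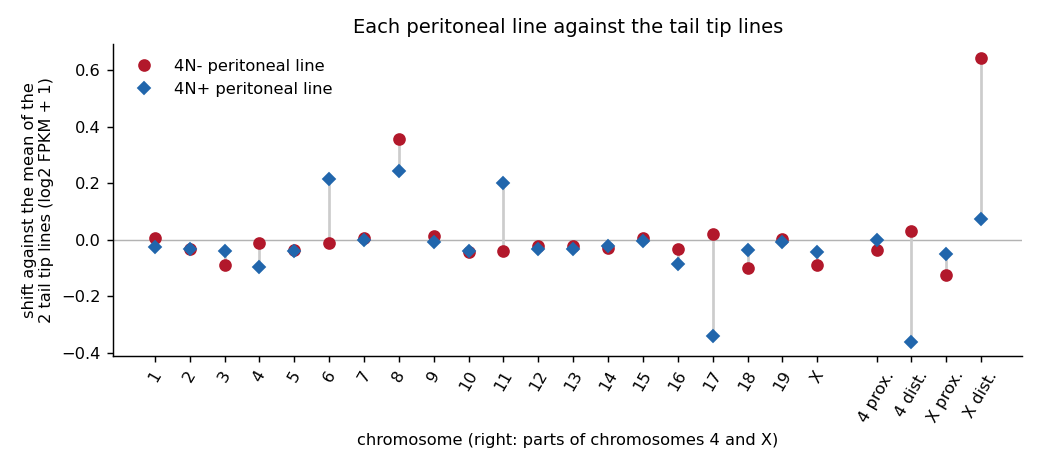
Shift of each chromosome (horizontal axis, with the parts of chromosomes 4 and X at the right) in the 4N- line (circles) and the 4N+ line (diamonds) against the mean of the 2 tail tip lines, in log2(FPKM + 1) relative to all autosomal genes. The 4N+ line is low on chromosome 17 (-0.34) and distal 4 (-0.36) and high on 6 and 11, and the 4N- line is high on distal X (0.64).

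The most expressed genes of chromosome 17 differed by unequal amounts. Hsp90ab1, a cytosolic chaperone gene, stood at 1276 FPKM in 4N- cells and 1074 in 4N+ cells. The tubulin gene Tubb5 stood at 382 and 331 FPKM, and the ribosomal protein gene Rps18 at 330 and 255. Ndufa7, a subunit gene of respiratory complex I, stood at 232 and 182 FPKM. Tcp1, a subunit gene of the TRiC chaperonin, was nearly level at 237 and 232 FPKM, and so was the pluripotency factor gene Pou5f1 at 279 and 266 FPKM. All 6 had higher values in the 4N- line. After centring on chromosome 17, Tcp1 and Pou5f1 were at -0.21 and -0.17 and Tubb5 at -0.03, so the direction of these 3 turned, while Rps18 stayed above 0 at 0.13. On the distal X chromosome the 3 genes with the highest values, named for their level, were the actin-binding thymosin gene Tmsb4x (479 and 320 FPKM), the translation factor gene Eif1ax (319 and 219) and Pdha1, a subunit gene of pyruvate dehydrogenase (151 and 92.9). Their ratios in the tail tip pair were 0.01, 0.08 and -0.11.

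The genes past 2-fold were spread over shifted and other chromosomes. The shifted chromosomes and ends held 26.4% of measured genes other than small RNA genes, and among those genes 13 were at least 2-fold higher and 22 lower, against 17 and 55 on the rest of the genome. At 1.5-fold 180 of these 11447 genes were higher and 519 lower over all chromosomes, with 91 and 248 on the rest of the genome. On chromosome 17, 41 of 571 genes were higher and 3 lower, and on chromosome 11, 7 of 978 were higher and 160 lower. On chromosome 6, 2 of 535 were higher and 101 lower, and on chromosome 8, 15 of 636 were higher and 6 lower. The shifts come from the same ratios, so the directions of these counts are not a separate result.

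Outside the shifted chromosomes, large differences were found in the Dlk1-Dio3 region of chromosome 12, whose noncoding RNAs are transcribed from the maternal chromosome. Rian stood at 0.20 FPKM in 4N- cells and 58.1 in 4N+ cells, Meg3 at 0.188 and 44.1, and Mirg, the host RNA of a microRNA cluster, at 0.0411 and 8.64. These are log2 ratios of -5.62, -5.25 and -3.21. On mm9 Meg3 spans 110779206 to 110809939, Rian 110842155 to 110899921 and Mirg 110973191 to 110987667 of chromosome 12. The 4N+ library was above the 4N- library in the tail tip pair too, where the 4N- line held Rian at 2.31, Meg3 at 1.52 and Mirg at 0.493 FPKM. Levels from the other tables were normalized separately, and the same limit holds wherever they are set beside the peritoneal lines. The ESC libraries were near the level of the 4N- peritoneal line, with Rian at 0.349 and 0.250 FPKM. The paternally expressed growth factor gene Dlk1 was low in both peritoneal lines, at 0.193 and 0.544 FPKM. At the Rian locus the small nucleolar RNA entry AF357355, singled out after its values were seen, was listed at 907 FPKM in the 4N+ line and at 0 in the other 5 libraries, and Mir1188 at 22.6 FPKM and 0. Entries of this kind share 1 merged locus with Rian, and a listed 0 may be a failed estimate.

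Meg3, Rian and Mirg lie on 1 strand in a row and were low or high together, so the windows around their annotated starts are shown, 250 bases before to 50 bases after each start, from RefSeq on GRCm38.p6, plus strand, with CG dinucleotides, the sites of DNA methylation, in capitals. They are chr12:109540746-109541045 for Meg3 (the first of its 2 annotated starts), chr12:109603695-109603994 for Rian and chr12:109734731-109735030 for Mirg.
Meg3: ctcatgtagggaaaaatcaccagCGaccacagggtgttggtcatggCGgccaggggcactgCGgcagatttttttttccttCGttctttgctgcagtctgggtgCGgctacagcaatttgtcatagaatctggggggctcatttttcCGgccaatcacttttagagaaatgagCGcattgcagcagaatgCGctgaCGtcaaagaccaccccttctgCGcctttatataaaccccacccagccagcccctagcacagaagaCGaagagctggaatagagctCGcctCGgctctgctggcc
Rian: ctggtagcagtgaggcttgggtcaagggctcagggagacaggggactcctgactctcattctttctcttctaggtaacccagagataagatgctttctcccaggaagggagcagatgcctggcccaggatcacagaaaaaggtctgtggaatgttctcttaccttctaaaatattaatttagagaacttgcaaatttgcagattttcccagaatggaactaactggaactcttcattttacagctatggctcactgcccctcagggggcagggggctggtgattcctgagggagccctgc
Mirg: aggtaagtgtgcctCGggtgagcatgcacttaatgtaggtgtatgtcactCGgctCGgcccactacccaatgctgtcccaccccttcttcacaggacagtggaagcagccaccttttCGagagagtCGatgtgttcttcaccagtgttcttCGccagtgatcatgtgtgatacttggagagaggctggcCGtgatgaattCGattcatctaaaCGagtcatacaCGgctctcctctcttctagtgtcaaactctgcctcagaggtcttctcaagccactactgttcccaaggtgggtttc
The Meg3 window holds 13 CG, and 37.9% of 32851 RefSeq windows of this length hold at least as many. The window of the second Meg3 start, not shown, holds 1, and 94.6% of windows hold at least as many. The Mirg window holds 10, a number reached by 43.5% of windows, and the Rian window holds 0, as do 5.43% of windows. The median window holds 7. The files hold no methylation values.

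Other imprinted genes did not share a direction. Of 41 genes in a list of imprinted genes outside that region, 33 were measured. By 2-fold or more 2 of them were higher (background 0.577%) and 3 lower (background 0.974%), and the list median was -0.07. Grb10, which encodes an adaptor that restrains insulin and growth factor signalling, stood at 25.2 FPKM in 4N- cells and 8.22 in 4N+ cells. It lies on chromosome 11, whose genes were on the whole lower in the 4N- line, and its ratio of 1.51 became 1.89 after chromosome centring (11830502 to 11937423 on mm9). The neuronal proteolipid gene Nnat stood at 7.94 and 1.44 FPKM. Slc38a4, an amino acid transporter gene of the placenta and liver, was lower at 34.8 against 101 FPKM, and the Polycomb-related gene Sfmbt2 was lower at 1.31 against 4.00. Nespas was at 0.292 and 1.90 FPKM, but it overlaps Gnas on the other strand, and since the use of strand is not given in the sources used here its value is uncertain.

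**Figure D5:**
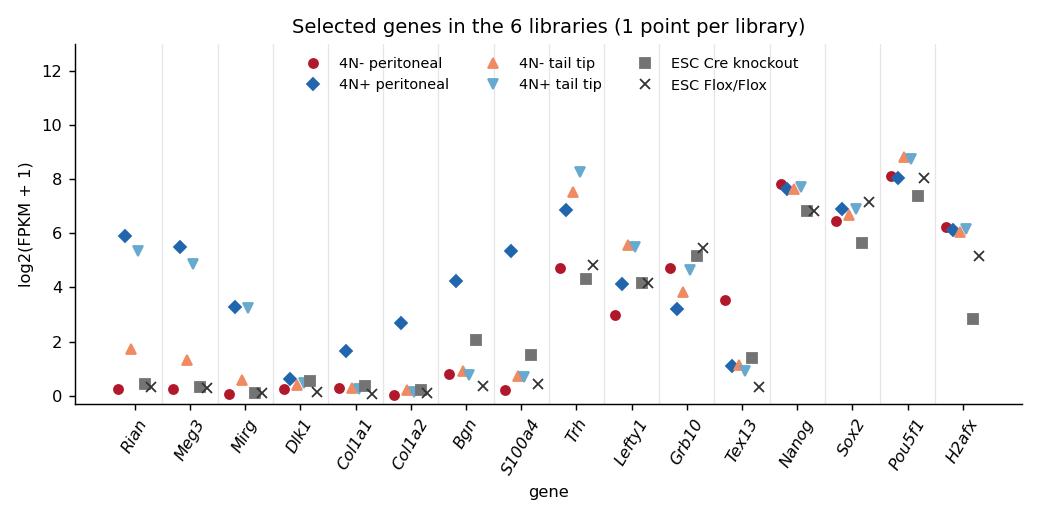
Expression of 16 genes (horizontal axis) as log2(FPKM + 1) in each of the 6 libraries, 1 symbol per library as in the key; the 3 pairs were normalized in separate tables. Rian, Meg3 and Mirg are highest in the 2 libraries labelled 4N+, Col1a2, Bgn and S100a4 are highest in the 4N+ peritoneal line, and Nanog, Sox2 and Pou5f1 are above 5 on this scale in all 6.

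Genes of fibroblasts and their matrix were lower in the 4N- line. In 3 lists of fibroblast genes (matrix, cytoskeleton and surface, and chemokines) with 80 members in the table, 65 were lower in the 4N- line, 10 higher and 5 equal, with no filter on level. Over all measured genes 68.1% were lower. Of the 80, 54 were measured. By 2-fold or more 24 of these were lower and 0 higher, where the background over measured genes was 0.974% lower and 0.577% higher. Only 7 of the 24 reached 1 FPKM in both libraries. The others passed the filter through the 4N+ line alone, which fixed their direction, so their number is no separate support. The lists were chosen with earlier results of these data known. Among the 30 members that reached 1 FPKM in both libraries, 25 were lower, 7 of them at least 2-fold (background 0.418%). Their median was -0.44, beside -0.13 over all such genes. After chromosome centring the median was -0.31, with 22 below 0 and 8 above, where 50.2% of all measured genes were above. Of the 23 matrix genes measured, 23 reached 1 FPKM in the 4N+ line and 10 in the 4N- line, so most of them entered through the line in which they were high. In bulk RNA, fewer cells of a type and less RNA per cell cannot be told apart.

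The genes with the largest differences came from several parts of the fibroblast programme. Biglycan (Bgn), a proteoglycan gene of the matrix (X chromosome, 70728974 to 70741275 on mm9), stood at 0.742 FPKM in 4N- cells and 18.0 in 4N+ cells. The fibrillar collagen gene Col1a2 stood at 0.0228 and 5.41 FPKM and its partner Col1a1 at 0.226 and 2.12. Serpinf1, the gene of pigment epithelium-derived factor, stood at 0.960 and 6.36 FPKM and the fibulin gene Fbln2 at 2.13 and 6.79. Each was lower in the 4N- line. Postn, the periostin gene, was listed at 0 and at 1.26 FPKM. Among genes of the cytoskeleton and cell surface, the calcium-binding protein gene S100a4 stood at 0.153 and 40.1 FPKM, with a ratio of -5.16 (chromosome 3, 90407692 to 90409967 on mm9), and it has 1 near-identical partner among annotated transcripts. The annexin gene Anxa1 stood at 1.97 and 16.7 FPKM, the smooth muscle actin gene Acta2 at 0.872 and 6.29, caveolin (Cav1) at 0.126 and 3.47 and the hyaluronan receptor gene Cd44 at 0.188 and 2.45. The abundant members Vim (32.3 and 66.8 FPKM), Lgals1 (60.2 and 125) and S100a6 (29.7 and 61.1) were also lower, each by a log2 ratio of -1.02 to -1.05. Chemokine and cytokine genes were below 1 FPKM in the 4N- line: Cxcl1 stood at 0.0302 against 4.87 FPKM, the macrophage growth factor gene Csf1 at 0.460 against 4.64, and Ccl2 was listed at 0 against 2.62.

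Some fibroblast genes were level between the lines, and some defining markers were low in the 4N+ line too. Pcolce, which encodes an enhancer of procollagen processing, was level at 32.2 and 30.5 FPKM, Mmp2, a gelatinase gene, at 6.31 and 6.41, and the calponin-family gene Tagln2 at 93.3 and 90.4. Some markers of fibroblasts, picked after their values were seen, were at or below 1.63 FPKM in the 4N+ line as well: Col3a1 stood at 0.677 FPKM, Prrx1 at 0.901 and Pdgfrb at 1.63, and Twist2 was listed at 0, while the surface marker gene Thy1 stood at 7.49. In the 4N- line Col3a1 stood at 0.00420, Prrx1 at 0.00961, Pdgfrb at 1.14 and Thy1 at 4.66, each lower than in the 4N+ line. Twist2 stood at 0.0610 in the 4N- line. The FPKM of the 34 matrix genes in the table summed to 168 in the 4N- line and 257 in the 4N+ line, of which Fn1, the fibronectin gene, gave 79.7 and 106. The part of remaining feeder cells, or of differentiated cells, in these differences was not tested. In the tail tip lines Col1a2 was at 0.146 and 0.0856 FPKM, S100a4 at 0.665 and 0.630 and Bgn at 0.868 and 0.704, near the level of the 4N- peritoneal line, whereas Anxa1 lay between the peritoneal lines, at 7.69 and 7.44 FPKM.

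Marker lists of other cell types differed little between the peritoneal lines. Of the listed genes, 2 of 7 mesothelial, 2 of 11 macrophage, 3 of 8 endothelial and 4 of 9 neural genes were measured, and none of these lists had a member that differed 2-fold. The lysosomal gene Cd68 (8.35 and 5.88 FPKM) led the macrophage list, and Cd74 stood at 1.77 and 2.20 FPKM. In the neural list Stmn2, a microtubule regulator gene, stood at 112 and 117 FPKM and Tubb3, a neuronal tubulin gene, at 16.4 and 19.2. Of the primitive endoderm list 8 of 20 genes were measured and of the epithelial list 6 of 9, with 0 past 2-fold. Of the trophoblast list 13 of 19 were measured, 7 higher (background 31.5%) and 6 lower. Rhox6 was at least 2-fold lower (background 0.974%), at 1.57 and 5.08 FPKM.

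The pluripotency network was present at similar levels in both lines. Of 35 naive pluripotency genes 34 were measured, all of them in both libraries. In the 4N- line 12 were higher and 22 lower, near the shares of 31.5% and 68.1% over all measured genes. By 2-fold 0 were higher and 2 lower (background 0.577% and 0.974%). The median of -0.10 lay beside -0.13 for all measured genes. Nanog stood at 228 FPKM in 4N- cells and 197 in 4N+ cells and Sox2 at 85.7 and 119. Nanog lies on chromosome 6, and its ratio of 0.21 became 0.58 after chromosome centring. The 2 members past 2-fold were the Nodal antagonist genes Lefty1 (6.89 and 16.4 FPKM) and Lefty2 (4.42 and 12), which are also targets of Nodal signalling. The ligand gene Nodal itself stood at 13.3 and 11.4 FPKM. In the tail tip lines Lefty1 stood at 46.0 and 43.9 FPKM, above either peritoneal line. Fbxo15 (55.2 and 32.9 FPKM) and Tbx3 (9.999 and 5.67 FPKM) had the highest ratios of the list, 0.73 and 0.72.

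A few genes of early ectoderm and of growth signalling were at least 2-fold lower, and the shares of lower members, 10 of 13 measured genes of the primed and ectodermal list and 10 of 14 immediate early genes, were near the 68.1% over all measured genes. Of the primed and ectodermal list, 2 were at least 2-fold lower (background 0.974%). They were the intermediate filament gene Nes (3.05 and 7.19 FPKM) and the de novo DNA methyltransferase gene Dnmt3a (11.4 and 23.9 FPKM). Dnmt3b stood at 21.1 and 31.4 FPKM and the homeobox gene Gbx2 at 4.27 and 9.32. Among 14 measured immediate early genes, Egr1 (2.29 and 6.62 FPKM) and Myc (2.09 and 5.74 FPKM) were at least 2-fold lower (background 0.974%). As much higher were 0 genes (background 0.577%). Egr1 and Myc are both transcription factor genes induced by growth signals.

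Lipid synthesis genes were lower in nearly every case, by small amounts. Of 20 measured genes of cholesterol and fatty acid synthesis, all of them measured in both libraries, 19 were lower in the 4N- line (background 68.1%), with a median of -0.41, and after chromosome centring 1 was above 0 and 19 below, where 50.2% of all measured genes were above, with a median of -0.24. Fasn, the fatty acid synthase gene, stood at 20.1 and 41.7 FPKM, and the desaturase genes Scd1 at 15.9 and 27.8 and Scd2 at 54.1 and 90.2. Fasn, on the shifted chromosome 11, was the only member past 2-fold, and its ratio was -0.64 after centring. The exception in direction was Sc4mol, a sterol oxidase gene, at 88.3 and 87.6 FPKM.

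Cell cycle genes were lower in 27 of 30 cases (background 68.1%), with a median of -0.26 that became -0.11 after chromosome centring, and 0 of them differed 2-fold. Top2a, the topoisomerase gene of dividing cells, stood at 244 and 394 FPKM. It lies on chromosome 11, and its ratio of -0.69 became -0.31 after centring. Trp53, the p53 gene, also on chromosome 11, stood at 48.8 and 79.2 FPKM, a ratio of -0.69. Of 26 measured genes of the p53 list, which includes Trp53, 18 were higher in the 4N- line (background 31.5%), 23 after chromosome centring (background 50.2%), and 0 were 2-fold different. Their median was 0.17, or 0.34 after centring. Plk2, a stress-responsive kinase gene, stood at 12.2 and 6.67 FPKM and the junction protein gene Perp at 18.9 and 10.8. The ubiquitin ligase gene Mdm2, which controls p53 itself, stood at 40.5 and 29.8 FPKM. Oxidative phosphorylation genes were lower in 22 of 25 cases, beside the background of 68.1%, with a median of -0.22. Of the 24 that reached 1 FPKM in both libraries, 17 were below 0 after centring and 7 above, with a median of -0.08.

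Genes of antigen presentation were slightly higher, and most of them lie on chromosome 17. Of 10 measured genes of class I presentation, 7 were higher in the 4N- line (background 31.5%), with a median of 0.21. On chromosome 17 lie 7 of the 10. The median was 0.03 after chromosome centring. Tap1, a peptide transporter gene on chromosome 17, stood at 3.08 and 1.51 FPKM, and B2m, the light chain gene on chromosome 2, at 15.4 and 23.

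Genes that mark rare cells resembling the 2-cell embryo were slightly higher in the 4N- line. Of 19 members present 18 were higher, 1 of them at least 2-fold, with a median of 0.29, beside a median of 0 over all entries with no filter on level. Only 5 of the 19 were measured, and 5 of those were higher (background over measured genes 31.5%, or 0.577% by 2-fold). Of the 5, 3 reached 1 FPKM in both libraries, and 3 of those were higher, 1 of them at least 2-fold. The others passed the filter through the 4N- line alone, which fixed their direction. Tcstv1 stood at 6.58 and 2.36 FPKM, Tcstv3 at 5.58 and 2.97, and Zscan4d at 1.61 and 0.756. Each of these belongs to a family of near-identical copies, so the split of fragments among copies is uncertain.

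Beyond the lists, large differences involved genes of unlike function. Trh, the thyrotropin-releasing hormone gene on chromosome 6, stood at 25.5 FPKM in 4N- cells and 116 in 4N+ cells, a ratio of -2.15 and of -1.77 after chromosome centring, while the tail tip lines held 185 and 305 FPKM. Pnma5, an X-linked gene of the paraneoplastic antigen family, stood at 2.95 and 31.4 FPKM, beside 19.5 and 26.2 in the tail tip lines. Higher in the 4N- line was the X-linked gene Tex13, known from testis (137342846 to 137347972 on mm9), at 10.7 and 1.15 FPKM, with 1.21 FPKM or less in both tail tip lines. The tubulin-modifying enzyme gene Ttll6 stood at 8.98 and 2.23 FPKM and the ribosomal protein gene Rpl39l at 14 and 3.41. Rpl39l was higher in the tail tip lines, at 66.9 and 62.0 FPKM. Got1l1 (22.4 and 8.60 FPKM), the surface antigen gene Gpa33 (11.5 and 4.27) and the membrane metalloprotease gene Mme (15.9 and 6.72) were also higher, by log2 ratios of 1.13 to 1.29. The pseudogene Rpl34-ps1 was listed at 12 FPKM and at 0, and Rps10 at 19.4 and 7.20. Both have near-identical copies and are uncertain.

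The calls of the authors' deposited table for this pair numbered 75, 13 of them higher and 62 lower in 4N- cells, or 0.0931% and 0.444% of the 13956 entries it tested. Of these, 57 were at least 2-fold different on the scale used here, 0 were small RNA genes, and 7 were also called in the tail tip pair. Among those 7, Grb10 had opposite directions in the 2 pairs. Rian, Meg3, Bgn, Col1a2, Trh, Grb10 and Tex13 were among the calls, and Fasn, Dnmt3a, Lefty1, Nnat and Myc were not. The authors' test also had 1 library a side. Of the 156 genes chosen by the naming rule, 37 have an exon that overlaps one on the opposite strand in the GENCODE vM21 annotation, among them Meg3, Pou5f1, Tap1, Nnat, Dnmt3a, Gbx2 and H2afx, and with the use of strand unknown their values are uncertain to that extent.

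H2afx, the gene of the histone variant H2A.X that is phosphorylated around DNA breaks, was at a similar level in both lines. It stood at 75.2 FPKM in 4N- cells and 69.1 in 4N+ cells (chromosome 9, 44142798 to 44144156 on mm9). As an intronless gene its values correspond to 3853 and 3545 fragments, a ratio of 1.09 with an exact binomial 95% interval of 1.04 to 1.14. The interval covers counting error only and no difference in depth between the libraries. The interval applies to the ratio without centring. On the log2 scale the ratio was 0.12, and it was 0.24 after chromosome centring. In the tail tip lines it stood at 65.3 and 70.9 FPKM. Of 25 genes of the H2A.X damage response, 7 were higher and 18 lower, near the shares of 31.5% and 68.1% over all measured genes. By 2-fold 0 of them differed, and the list median moved from -0.10 to 0.00 after chromosome centring. The largest difference among them was that of Rad50, a double-strand break repair gene on chromosome 11, at 10.8 and 20.3 FPKM, with a ratio of -0.85 and of -0.47 after centring.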

How the data were processed

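Messenger RNA of 6 cultures was sequenced with Illumina TruSeq libraries, per the labels' protocols, and 3 tables of 2 libraries each were deposited. Reads passed through CASAVA and TopHat2 on mm9, per the submitters' processing notes; for versions, the quantifier, annotation, strand use and read totals, nothing is given in the sources used here. The value columns were treated as FPKM as deposited by the authors, since they are never negative and not whole. The p-values and q-values are the authors' own and enter no result beyond their calls. The deposited log2 fold changes matched the value columns within 0.01 in 16518 of 16560 entries, and the 42 others have the status FAIL. Their test statistic, of a unit other than expression, was deposited by the authors and not used.

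Ratios are log2(FPKM + 1), 4N- minus 4N+, from the table of the peritoneal pair (Python 3.11.15, pandas 2.3.3, numpy 2.4.6, matplotlib 3.10.9). Intronless receptor genes gave the worth of 1 fragment, with 100% of 18 and 12 other values within 0.05 of a whole number. It corresponds to a divisor of 44390000 fragments that was the same in the 2 libraries. This divisor is therefore not a depth measured for each library, and whether a difference in depth remains in the ratios was not tested. Members and the 34 gene lists (670 genes, 658 in the table) were chosen with earlier results of these data known. Named genes are the 12 highest and 12 lowest ratios among genes at 5 FPKM or more, leaving out small RNA genes, clone names, date-like names and multiple names, the 6 highest and 6 lowest after chromosome centring, list members past 2-fold or with the 4 largest ratios of their list, the 6 most expressed genes of chromosome 17, and 10 fixed genes. Some genes that meet this rule are not reported here. Others were named after their values were seen: members that were level or went against their list, defining markers, and the entries at chromosome ends and at Rian. Near-identical copies share at least 95% identity over at least 50% of the longest GENCODE transcript; 11 of 156 named genes have 1 or more. Code was tested on simulated data. Alternatives changed the pseudocount, the filter, the centring and the entries used. GRCm38 sequences and mm9 positions were not combined.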

Additional observations from a re-analysis of the deposited data

Results flagged for a closer look

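For 4 of the named genes that reached 5 FPKM in at least 1 library of each pair, the difference between the 4N- and 4N+ lines ran in opposite directions in the peritoneal and tail tip pairs, by at least 1.5-fold in each, and this difference between pairs was not tested, since each pair has 1 library a side. Grb10 had a log2 ratio of 1.51 in the peritoneal pair and -0.81 in the tail tip pair, with 13.4 and 24.3 FPKM in the tail tip 4N- and 4N+ lines. Myc had ratios of -1.13 and 0.73, with 8.21 and 4.57 FPKM in the tail tip lines. The homeobox gene Gbx2 had ratios of -0.97 and 0.69, with 5.55 and 3.06 FPKM in the tail tip lines. The X-linked homeobox gene Rhox6 had ratios of -1.24 (1.57 and 5.08 FPKM) and 0.64 (17.1 and 10.6 FPKM). Nnat, at 2.28 and 4.93 FPKM in the tail tip lines and so just under that level, had ratios of 1.88 and -0.86. For each of these 5 genes the levels of the lines labelled 4N- and 4N+ overlapped. That overlap follows from the choice of genes with opposite directions and is not a separate result.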

How the results depend on the processing

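With 1 library a side no replicate could be left out, and depth limits low genes: a transcript of 2000 bases at 1 FPKM rests on 79.7 fragments. The shifts of chromosomes 6, 8, 11 and 17 kept their direction under all 7 alternatives and ranged from -0.27 to -0.23, 0.13 to 0.14, -0.29 to -0.22 and 0.35 to 0.41. The number of genes at least 2-fold higher was 120 with a pseudocount of 0.1, 43 with 5 and 30 without small RNA genes, and the number lower was 192 with 0.1 and 57 with 5. With a pseudocount of 0.1 the list medians were -7.26 for the Dlk1-Dio3 region, -1.13 for fibroblast matrix, -3.54 for chemokine and 1.001 for 2-cell-like genes. With no filter on low values they were -0.37, -0.34, -0.32 and 0.29. Centred by chromosome, the matrix median was -0.56 and the chemokine median -1.48. Without the shifted chromosomes and ends, an alternative chosen after seeing the data, they were -0.55 and -2.23 (2 genes), and the class I presentation median turned to -0.27 (2 genes). The cause of these changes was not tested. The chromosome-centred ratios of 51 named genes moved by more than 0.20, and none of the 2-fold ones reversed under the 4 alternatives run. No paired analysis was possible because each label has 1 library in the comparison.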
